A study of Homo sapiens with 14 samples.

Results

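Genes of MHC class I antigen presentation were followed on 14 expression arrays of WI-38, diploid human fibroblasts derived from lung. The genes were chosen by name, as every row of the array table whose annotated symbol is, or includes, HLA-B, HLA-C, HLA-E, HLA-F, B2M, TAP1, TAP2, PSMB8 or PSMB9. This gave 19 of 28869 rows, for 8 of the 9 genes. No row carried HLA-E, which was not analysed here. The 5 genes B2M, TAP1, TAP2, PSMB8 and PSMB9 had 13 rows of their own. The heavy chain genes had 6 rows, all with 2 symbols: 3 rows carried HLA-C together with HLA-B, and 3 carried HLA-F together with HLA-B. Signal on these rows cannot be assigned to 1 heavy chain gene, and they are called HLA-C/HLA-B and HLA-F/HLA-B.

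The arrays fall into 7 groups of 2. The primary cells were at passage 19. The other cells carried hTERT, the catalytic subunit of telomerase used to immortalize them, and were labelled A at passages 39, 50, 58, 67 and 95 and B at passage 96. Groups are named by letter and passage, from A39 to B96, or as primary. All groups were WI-38 cells passaged weekly in the same medium, and the RNA was taken in biological duplicate. The sources used here do not say how hTERT was delivered, whether the cells were cloned, or what A and B mean. Values are log2 expression, so a difference of 1 is a 2-fold change.

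MHC class I molecules show peptides from inside the cell to T cells. A polymorphic heavy chain (HLA-B and HLA-C, or the less variable HLA-F) pairs with the invariant light chain beta-2-microglobulin, the product of B2M. The peptides are cut by proteasomes, in which PSMB8 and PSMB9 replace constitutive catalytic subunits to form the immunoproteasome, and are carried into the endoplasmic reticulum by the transporter that TAP1 and TAP2 form together. Interferons induce these genes in many cell types, fibroblasts included. TAP2, PSMB8, TAP1 and PSMB9 lie next to each other in this order in the MHC region of chromosome 6, and TAP1 and PSMB9 are transcribed away from each other from a shared promoter region. B2M lies on chromosome 15.

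The sequences before the start sites of TAP1 and PSMB9, the neighbours whose profiles had the highest correlation among the genes with rows of their own, are shown with those of PSMB8, B2M and 2 heavy chain genes. Each is the 250 bases before the start in RefSeq (GRCh38.p14), written 5′ to 3′ on the gene's own strand. TAP1 and PSMB8 have 2 starts each in the RefSeq table, and the outer one is shown. TAP1 lies at chr6:32853705-32853954 on the minus strand, PSMB9 at chr6:32853942-32854191 on the plus strand, and PSMB8 at chr6:32844680-32844929 on the minus strand. B2M lies at chr15:44711267-44711516 on the plus strand, HLA-B at chr6:31357180-31357429 on the minus strand and HLA-F at chr6:29723184-29723433 on the plus strand. Capitals mark matches, on either strand, to 4 kinds of motif. The interferon-stimulated response element was read as GAA or GAAA, any 2 bases, then GAAA, and an NF-kappaB site as GGG, any 2 bases, TT, any base, then CC. The core of the X2 box was TGACG and the Y box CCAAT, and matches of different motifs may overlap.
TAP1: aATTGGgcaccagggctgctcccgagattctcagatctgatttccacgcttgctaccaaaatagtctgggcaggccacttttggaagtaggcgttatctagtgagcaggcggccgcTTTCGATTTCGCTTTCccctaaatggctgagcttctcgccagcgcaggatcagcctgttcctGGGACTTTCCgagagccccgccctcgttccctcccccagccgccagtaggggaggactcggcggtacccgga
PSMB9: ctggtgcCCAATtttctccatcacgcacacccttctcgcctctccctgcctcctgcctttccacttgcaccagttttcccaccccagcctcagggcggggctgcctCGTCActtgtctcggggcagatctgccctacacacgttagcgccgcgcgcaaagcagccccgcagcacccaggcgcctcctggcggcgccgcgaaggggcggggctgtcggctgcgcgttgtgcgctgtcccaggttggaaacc
PSMB8: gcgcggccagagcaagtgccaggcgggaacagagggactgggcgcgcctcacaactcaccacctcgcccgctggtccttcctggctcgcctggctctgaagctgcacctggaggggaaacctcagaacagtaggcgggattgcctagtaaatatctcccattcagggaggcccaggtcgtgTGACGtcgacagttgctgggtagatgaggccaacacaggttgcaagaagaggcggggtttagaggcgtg
B2M: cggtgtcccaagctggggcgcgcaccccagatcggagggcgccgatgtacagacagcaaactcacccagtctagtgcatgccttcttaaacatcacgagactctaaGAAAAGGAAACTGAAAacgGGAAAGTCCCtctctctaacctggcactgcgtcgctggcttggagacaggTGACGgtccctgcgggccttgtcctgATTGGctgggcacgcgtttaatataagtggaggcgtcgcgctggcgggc
HLA-B: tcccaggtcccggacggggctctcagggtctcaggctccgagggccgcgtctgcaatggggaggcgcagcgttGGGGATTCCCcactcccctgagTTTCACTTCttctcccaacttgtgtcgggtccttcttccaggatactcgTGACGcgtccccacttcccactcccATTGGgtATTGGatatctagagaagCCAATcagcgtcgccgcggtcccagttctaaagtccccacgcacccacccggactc
HLA-F: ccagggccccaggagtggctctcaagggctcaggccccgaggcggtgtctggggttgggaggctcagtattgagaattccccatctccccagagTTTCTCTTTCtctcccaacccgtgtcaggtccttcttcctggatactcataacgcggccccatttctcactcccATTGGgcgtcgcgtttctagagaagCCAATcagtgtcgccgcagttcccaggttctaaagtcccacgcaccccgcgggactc

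The TAP1 and PSMB9 windows share 13 bases and together cover the whole stretch between the 2 starts. The TAP1 window held 2 overlapping matches to the interferon element, 134 to 119 bases before its start, and an NF-kappaB match 72 to 63 bases before it. The PSMB9 window itself held no match to the interferon element, and neither did the 2 windows of PSMB8. At least 1 match to it stood before the starts of 6 of the 8 genes: TAP1, B2M, HLA-B and HLA-F as printed, and HLA-C and TAP2, not printed. The form that starts with GAA gave 3 of the 8, HLA-B, HLA-C and TAP2. TAP1, B2M and HLA-F matched only the form that starts with GAAA, which was added after a first search of these windows. Of all 35116 windows of this length, 6.56% held the shorter form of the interferon element and 9.08% either form, 5.07% the NF-kappaB letters, 21.2% the X2 core and 32% the Y box. A match describes letters and is no evidence of binding, and a window without one says nothing about the factor.

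Some facts of the whole series bear on every value below. TERT read 7.07 on the array labelled primary replicate 1, 11.70 on primary replicate 2 and between 10.67 and 12.18 on the 12 arrays labelled hTERT, so 1 of the 2 arrays labelled primary goes against the gene that checks its label. For 5 pairs of arrays with different labels, each array was the other's closest match over all rows, with correlations of 0.986 to 0.993, whereas the 7 pairs that share a label had 0.945 to 0.983. In all 5, replicate 2 of a label was paired with replicate 1 of another: primary with A39, A39 with A50, A50 with A58, A58 with A67, and A95 with B96. Whether array and label are shifted against each other was not tested, and every group mean, contrast and slope below takes the labels as given. The 15 markers of lung fibroblasts measured here all had row means above the median row. Their mean deviation was -0.40 on A95 replicate 2 and B96 replicate 1, -0.27 to -0.17 on A58 replicate 2, both arrays labelled A67 and A95 replicate 1, -0.04 on primary replicate 1 and 0.11 to 0.33 elsewhere. Among 13 blood cell markers PTPRC, CD3E and CD14 lay between 5.20 and 6.79, while CD68 read 9.69 to 10.5 and HBB ran from 5.70 on primary replicate 1 to 8.61 on A58 replicate 1. Of the endothelial markers, CDH5 and VWF stayed between 5.83 and 6.83. CDH1 and EPCAM, of the epithelial list, lay between 5.31 and 6.26, while KRT18 read 9.77 to 11.9, KRT8 9.20 to 10.2, KRT14 8.45 to 9.25 and KRT19 6.71 to 9.11. Of the 13 blood cell, 9 endothelial and 10 epithelial markers, 2, 3 and 7 had row means above the median row. The mean deviations of the blood cell, endothelial and epithelial lists ran from -0.20 to 0.13, from -0.13 to 0.21 and from -0.34 to 0.28 over the arrays. The endothelial receptor TEK read 6.77 and 6.79 on A95 replicate 2 and B96 replicate 1 and 9.18 to 10.8 elsewhere, and PECAM1 read 8.44 and 7.83 on those 2 arrays and at most 7.04 elsewhere. Their part in the results was not tested.

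Several genes had more than 1 row. The 3 rows of TAP1 held the same values on every array, as did those of PSMB8 and of PSMB9, and the 3 rows of TAP2 differed by at most 0.09. The HLA-C/HLA-B rows lay within 0.25 of each other. Of the HLA-F/HLA-B rows, 2 followed each other while the third was much dimmer, by up to 4.72 on 1 array, and ranged from 5.78 on A67 replicate 2 to 7.15. One row, that with the highest mean, stands for each gene or gene pair below, which leaves 7 profiles.

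The heavy chain profiles were high in A39, A50 and B96, low in A67, and split within primary, A58 and A95. HLA-C/HLA-B read 11.51 and 12.50 (primary), 12.46 and 12.26 (A39), 12.22 and 12.21 (A50), 12.21 and 11.74 (A58), 11.62 and 11.63 (A67), 11.62 and 12.17 (A95) and 12.18 and 12.27 (B96). HLA-F/HLA-B read 10.32 and 11.44 (primary), 11.43 and 11.30 (A39), 11.16 and 11.24 (A50), 11.23 and 10.59 (A58), 10.46 and 10.50 (A67), 10.59 and 10.98 (A95) and 11.03 and 11.13 (B96). In both profiles the 5 lowest arrays were primary replicate 1, A58 replicate 2, both arrays labelled A67 and A95 replicate 1. The label A58 thus holds 1 array of the high and 1 of the low kind. B2M, which encodes the light chain, read 11.64 and 12.26 (primary), 12.24 and 12.23 (A39), 12.31 and 12.15 (A50), 12.12 and 11.60 (A58), 11.57 and 11.56 (A67), 11.59 and 11.41 (A95) and 11.41 and 11.79 (B96). B2M also differed between the arrays labelled A58, by 0.52, but unlike the heavy chains it was lowest on A95 replicate 2 and B96 replicate 1.

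TAP1, which encodes 1 chain of the peptide transporter, varied more. It read 8.28 and 10.00 (primary), 9.98 and 10.17 (A39), 10.08 and 9.73 (A50), 9.65 and 9.32 (A58), 9.23 and 8.97 (A67), 9.04 and 10.26 (A95) and 10.06 and 9.87 (B96). Its highest value was on A95 replicate 2 and its next to lowest values were on A67 replicate 2 and A95 replicate 1, so the label A95 spans nearly the full range of the hTERT arrays. TAP2, which encodes the partner chain, read 8.34 and 9.80 (primary), 9.78 and 9.42 (A39), 9.43 and 9.72 (A50), 9.60 and 9.38 (A58), 9.48 and 9.28 (A67), 9.02 and 10.04 (A95) and 9.92 and 8.99 (B96). Like TAP1 it was highest on A95 replicate 2, but B96 replicate 2 lay at the low end for TAP2 and in the middle for TAP1.

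The immunoproteasome subunits went different ways on A95 replicate 2 and B96 replicate 1, while both were lowest on primary replicate 1. PSMB9 read 7.14 and 9.87 (primary), 9.84 and 9.60 (A39), 9.58 and 8.70 (A50), 8.56 and 8.64 (A58), 8.75 and 8.22 (A67), 8.29 and 10.24 (A95) and 10.13 and 8.87 (B96). It had the widest range of the 7 profiles, 3.10 log2 or 8.57-fold from primary replicate 1 to A95 replicate 2, and its values differed by 0.88 between the arrays labelled A50. PSMB8 read 8.20 and 9.86 (primary), 9.87 and 9.46 (A39), 9.67 and 9.35 (A50), 9.16 and 9.53 (A58), 9.61 and 9.46 (A67), 9.19 and 8.92 (A95) and 8.92 and 9.00 (B96). Without primary replicate 1, PSMB8 was lowest on A95 replicate 2 and B96 replicate 1, the 2 arrays on which PSMB9 was highest. On A95 replicate 2, set against A95 replicate 1, PSMB9 differed by 1.95, TAP1 by 1.22, TAP2 by 1.02, HLA-C/HLA-B by 0.55 and HLA-F/HLA-B by 0.39, while B2M differed by -0.18 and PSMB8 by -0.27. These are differences between 2 arrays with the same label and carry no test.

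**Figure D1:**
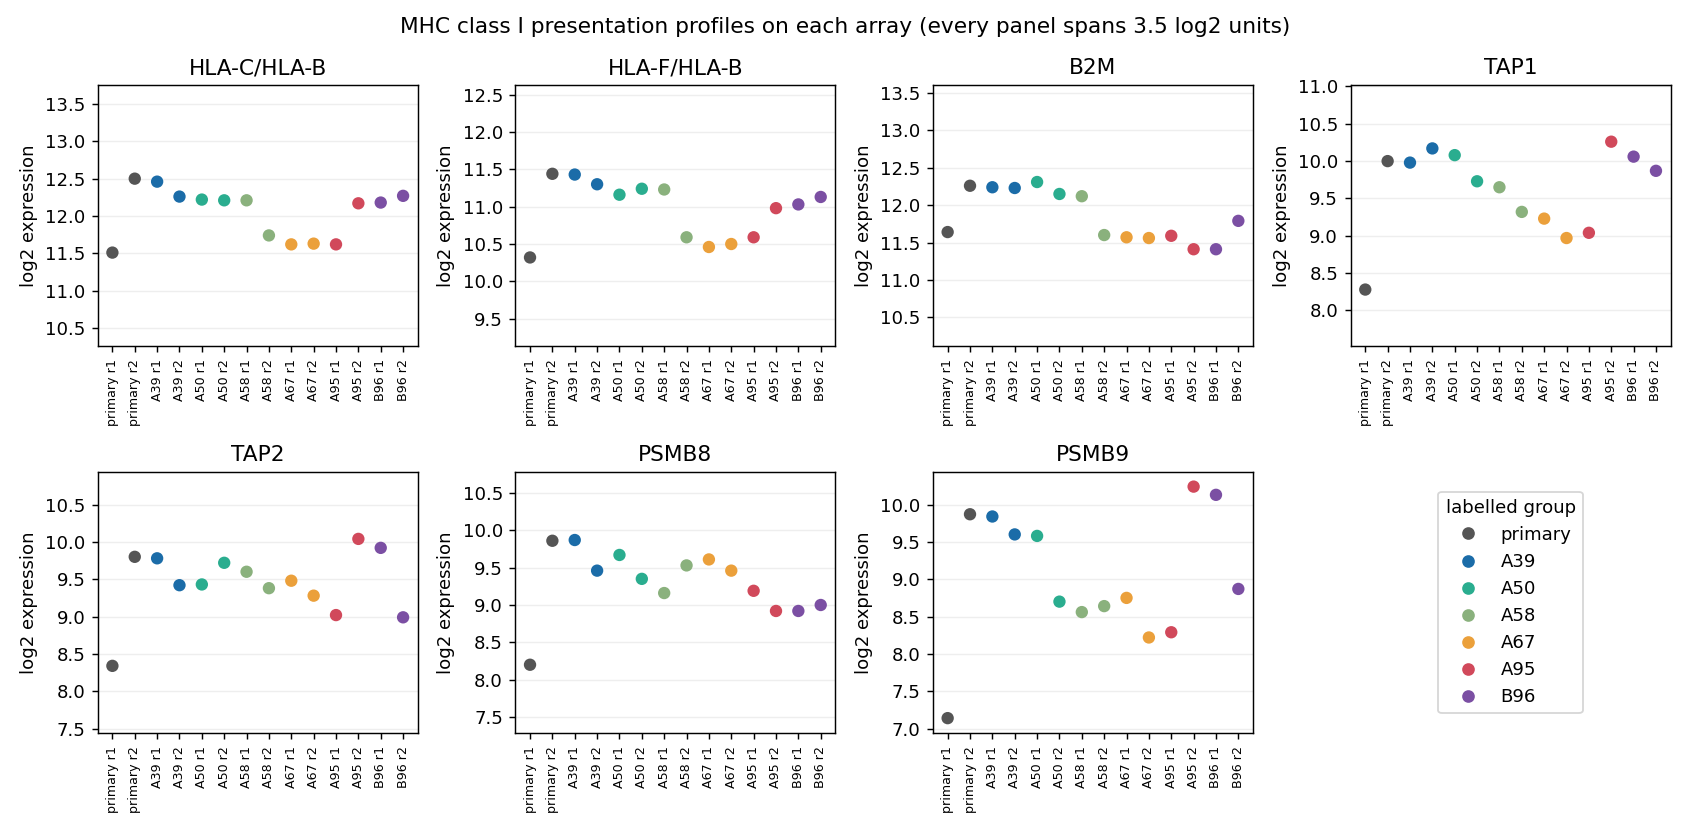
Log2 expression (vertical axis) of the 7 profiles on each of the 14 arrays (horizontal axis, r1 and r2 for replicate), 1 point per array, coloured by labelled group, with the same span of log2 units in every panel. Primary replicate 1 is the lowest point in 6 of 7 panels, and A95 replicate 2 and B96 replicate 1 stand high for TAP1, TAP2 and PSMB9 but low for B2M and PSMB8.

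Ranges over the 14 arrays were 0.99 for HLA-C/HLA-B, 1.12 for HLA-F/HLA-B, 0.90 for B2M, 1.98 for TAP1, 1.70 for TAP2, 1.67 for PSMB8 and 3.10 for PSMB9. The median range of all 28869 rows was 0.85. A range at least as wide as that of PSMB9 was found in 1.70% of all rows, as wide as that of TAP1 in 6.80%, TAP2 in 10.4% and PSMB8 in 10.9%. This share was 29.5% for HLA-F/HLA-B, 37.9% for HLA-C/HLA-B and 45.6% for B2M, so ranges like theirs were common in this table. Primary replicate 1, the array with the low TERT value, gave the lowest value of every profile but B2M. It lay under the lowest of the other 13 arrays by 1.08 for PSMB9, 0.72 for PSMB8, 0.69 for TAP1 and 0.65 for TAP2, but by only 0.11 for HLA-C/HLA-B and 0.14 for HLA-F/HLA-B. B2M on this array, at 11.64, ranked 8 of 14. Without primary replicate 1 the ranges were 2.02 for PSMB9, 1.29 for TAP1, 1.05 for TAP2 and 0.95 for PSMB8. Shares of all rows were not counted without this array.

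Arrays with the same label often differed more than arrays that were closest partners. Among the 7 labelled pairs the largest difference of any profile was 0.41 to 2.73 and the median absolute difference of the 7 profiles 0.15 to 1.46. Among the 5 partner pairs these were 0.04 to 0.21 and 0.020 to 0.10. The median absolute difference over all rows was 0.19 to 0.33 in labelled pairs and 0.10 to 0.16 in partner pairs. Rows in general thus also differed more within labels. Primary replicate 2 and A39 replicate 1, for example, differed by at most 0.04 in any profile, and the arrays labelled primary by 2.73 in PSMB9. The 5 partner pairs were found from all rows, these genes included, and so the small differences within them are a description. All comparisons below keep the labelled groups.

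**Figure D2:**
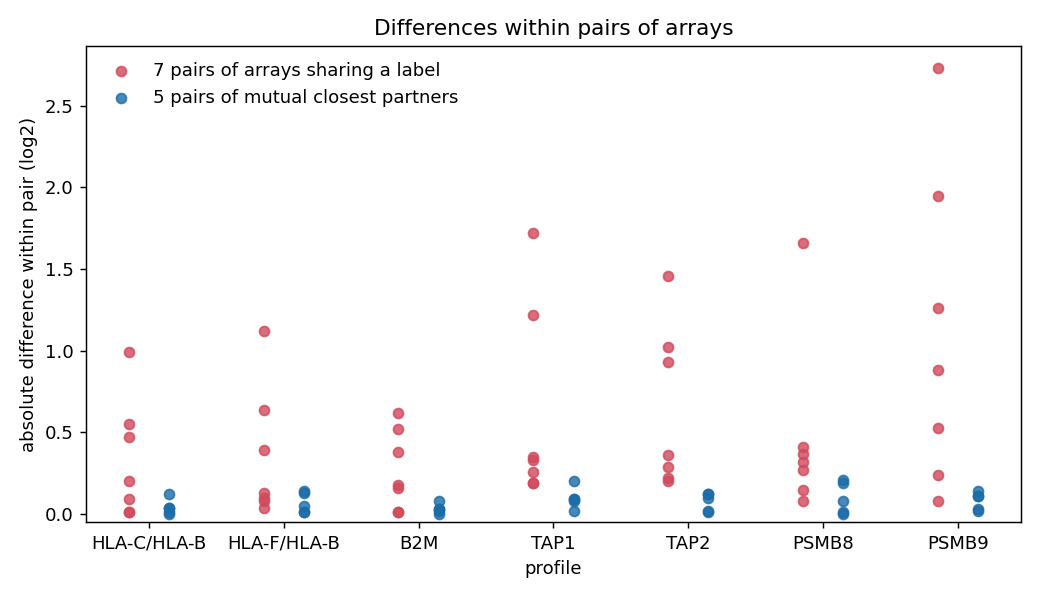
Absolute log2 difference (vertical axis) of each profile (horizontal axis) within the 7 pairs of arrays that share a label and within the 5 pairs of mutual closest partners, 1 point per pair. Differences within partner pairs reach 0.21, and those within labelled pairs reach 2.73 for PSMB9.

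Group means of PSMB9 ran from 9.72 ± 0.17 (SD, n = 2) in A39 over 9.50 ± 0.89 in B96, 9.27 ± 1.38 in A95, 9.14 ± 0.62 in A50, 8.60 ± 0.06 in A58 and 8.51 ± 1.93 in primary to 8.49 ± 0.38 in A67. Neighbours in this order overlapped in 5 of 6 cases, all but A50 and A58. For HLA-F/HLA-B neighbours overlapped in 3 of 6 cases, and for the other 5 profiles in 6 of 6. The share of such overlaps over all rows was not counted, so these counts cannot be read as particular to the profiles. A39 had the highest mean in each of the 7 profiles, with 10.07 ± 0.13 for TAP1, 9.60 ± 0.25 for TAP2, 9.67 ± 0.29 for PSMB8, 12.24 ± 0.01 for B2M, 12.36 ± 0.14 for HLA-C/HLA-B and 11.37 ± 0.09 for HLA-F/HLA-B. The lowest mean was that of A67 for TAP1 (9.10 ± 0.18), HLA-C/HLA-B and HLA-F/HLA-B, that of primary for TAP2 (9.07 ± 1.03), that of B96 for PSMB8 (8.96 ± 0.06) and that of A95 for B2M (11.50 ± 0.13). Over all 7 groups, limma's F test called 0 of 19 member rows after Benjamini-Hochberg adjustment over all rows (0% of all rows), and 1, that of B2M, at an unadjusted p under 0.05 (4.62% of all rows). The adjusted p of B2M in limma was 0.943.

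A39 was set against the 2 arrays labelled primary, of which 1 has TERT in the hTERT range, so this contrast does not set hTERT cells against cells without it. All 7 profiles had higher means in A39. The median of their differences was 0.53, against 0.03 over all rows. The difference was 1.22 ± 0.83 (SE) for PSMB9, 0.94 ± 0.50 for TAP1, 0.64 ± 0.42 for PSMB8, 0.53 ± 0.48 for TAP2, 0.49 ± 0.33 for HLA-F/HLA-B, 0.36 ± 0.30 for HLA-C/HLA-B and 0.29 ± 0.24 for B2M. Limma called 0 of 19 member rows (0% of all rows), with an adjusted p of 1.00 for each, and 0 at an unadjusted p under 0.05 (1.2% of all rows). The groups overlapped in each profile, where 15% of all rows were higher and 12.8% lower in A39 without overlap. Without primary replicate 1 the median difference was -0.14 and without primary replicate 2 it was 1.26, so the direction rests on the array with the low TERT value.

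A95 against A39 compares the ends of the passages labelled A. All 7 profiles were lower in A95, with a median of -0.47 against 0.07 over all rows. B2M had the largest difference, -0.74 ± 0.24 (SE), followed by PSMB8 at -0.61 ± 0.42, HLA-F/HLA-B at -0.58 ± 0.33, HLA-C/HLA-B at -0.47 ± 0.30, PSMB9 at -0.46 ± 0.83, TAP1 at -0.43 ± 0.50 and TAP2 at -0.07 ± 0.48. The groups did not overlap for B2M, PSMB8 and both heavy chain profiles, which is 4 of 7, where 15.4% of all rows were lower and 22.7% higher in A95 without overlap. Limma called 0 of 19 member rows (0% of all rows). At an unadjusted p under 0.05 it found 1, that of B2M, against 9.21% of all rows. The adjusted p of B2M in limma was 0.528. Of the 15 lung fibroblast markers, 13 had negative differences here too (median -0.52), and their part in the result was not tested. The median was -0.74 without A95 replicate 2 and -0.19 without A95 replicate 1. Without the latter the differences were 0.52 for PSMB9, 0.44 for TAP2 and 0.19 for TAP1, and that of B2M was -0.83.

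The contrast of B96 with A95 sets the 2 letters against each other at the last passages. Differences were 0.33 ± 0.30 (SE) for HLA-C/HLA-B, 0.32 ± 0.50 for TAP1, 0.30 ± 0.33 for HLA-F/HLA-B, 0.24 ± 0.83 for PSMB9, 0.10 ± 0.24 for B2M, -0.08 ± 0.48 for TAP2 and -0.10 ± 0.42 for PSMB8. The groups did not overlap for the 2 heavy chain profiles, where 9.83% of all rows were higher and 9.84% lower in B96 without overlap. These 2 profiles share HLA-B in their annotation, and their gaps were small. HLA-C/HLA-B read 12.17 on A95 replicate 2 and 12.18 on B96 replicate 1, and HLA-F/HLA-B read 10.98 and 11.03. Limma called 0 of 19 member rows (0% of all rows) and 0 at an unadjusted p under 0.05 (2.28% of all rows), with adjusted p = 1.00 for each. A95 replicate 2 and B96 replicate 1, closest partners, lie on opposite sides here. The differences of PSMB9, TAP1 and TAP2 without A95 replicate 1 were -0.74, -0.30 and -0.59, and without A95 replicate 2 they were 1.21, 0.93 and 0.44.

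The 4 steps between neighbouring labelled passages had these medians of the 7 profiles: -0.16 for A50 against A39, -0.29 for A58 against A50, -0.30 for A67 against A58 and 0.27 for A95 against A67. Limma called 0 of 19 member rows in each step (0% of all rows in each). At an unadjusted p under 0.05 it found 0 member rows in each step, where the shares of all rows were 0.797%, 0.984%, 1.34% and 3.13%. Between A39 and A50 the groups did not overlap for PSMB9 and both heavy chain profiles, all lower in A50, where 12% of all rows were lower and 11.7% higher without overlap. Between A50 and A58 this held for B2M, TAP1 and PSMB9, all lower in A58, where 14.7% of all rows were lower and 9.9% higher. Between A58 and A67 it held for HLA-C/HLA-B, HLA-F/HLA-B, B2M and TAP1, all lower in A67, where 16.4% were lower and 11.7% higher. In the last step HLA-F/HLA-B was higher and PSMB8 lower in A95 without overlap, where 18.4% of all rows were higher and 10.8% lower. Some of these gaps were small and lay between closest partners. PSMB9 read 9.60 on A39 replicate 2 and 9.58 on A50 replicate 1. B2M read 12.15 on A50 replicate 2 and 12.12 on A58 replicate 1. It read 11.60 on A58 replicate 2 and 11.57 on A67 replicate 1. Single arrays moved the medians of the steps. The first step had -0.045 without A39 replicate 1 and -0.23 without A39 replicate 2, the second -0.11 without A58 replicate 2 and -0.50 without A58 replicate 1, and the third -0.11 without A58 replicate 1 and -0.55 without A58 replicate 2. The last step had -0.06 without A95 replicate 2 and 0.55 without A95 replicate 1.

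A line fitted against passage in the A series of 10 arrays gave slopes that were below 0 in all 7 profiles, with a median of -0.09 log2 per 10 passages against 0.01 over all rows. B2M had a slope of -0.15 ± 0.04 (SE, limma adjusted p = 0.090), HLA-F/HLA-B of -0.11 ± 0.05 (adjusted p = 0.248), PSMB8 of -0.10 ± 0.03 (adjusted p = 0.176) and HLA-C/HLA-B of -0.09 ± 0.04 (adjusted p = 0.296). TAP1, PSMB9 and TAP2 had slopes of -0.08 ± 0.07, -0.06 ± 0.11 and -0.02 ± 0.05, with limma adjusted p from 0.532 to 0.884. Limma called 0 of 19 member rows, while 0.281% of all rows passed. At an unadjusted p under 0.05 it found 6 member rows, which stand for B2M, PSMB8 and HLA-F/HLA-B, all falling, where 18.7% of all rows passed that level, 8.83% falling and 9.89% rising. The fit treats the 10 arrays as independent, although 3 partner pairs lie among them at adjacent passages. B2M passed under 4 alternatives, with slopes of -0.16 after centring arrays on their medians (limma adjusted p = 0.039, 1.49% of all rows passing), -0.15 with passage as a random block (0.046, 2.53%), -0.21 per step on ranks of passage (0.030, 1.69%) and -0.13 with array weights (0.042, 7.52%). With array weights TAP1 and HLA-C/HLA-B passed as well, with slopes of -0.17 and -0.13. Over passages 39 to 67 alone the median slope was -0.26, and without A95 replicate 2 it was -0.16.

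**Figure D3:**
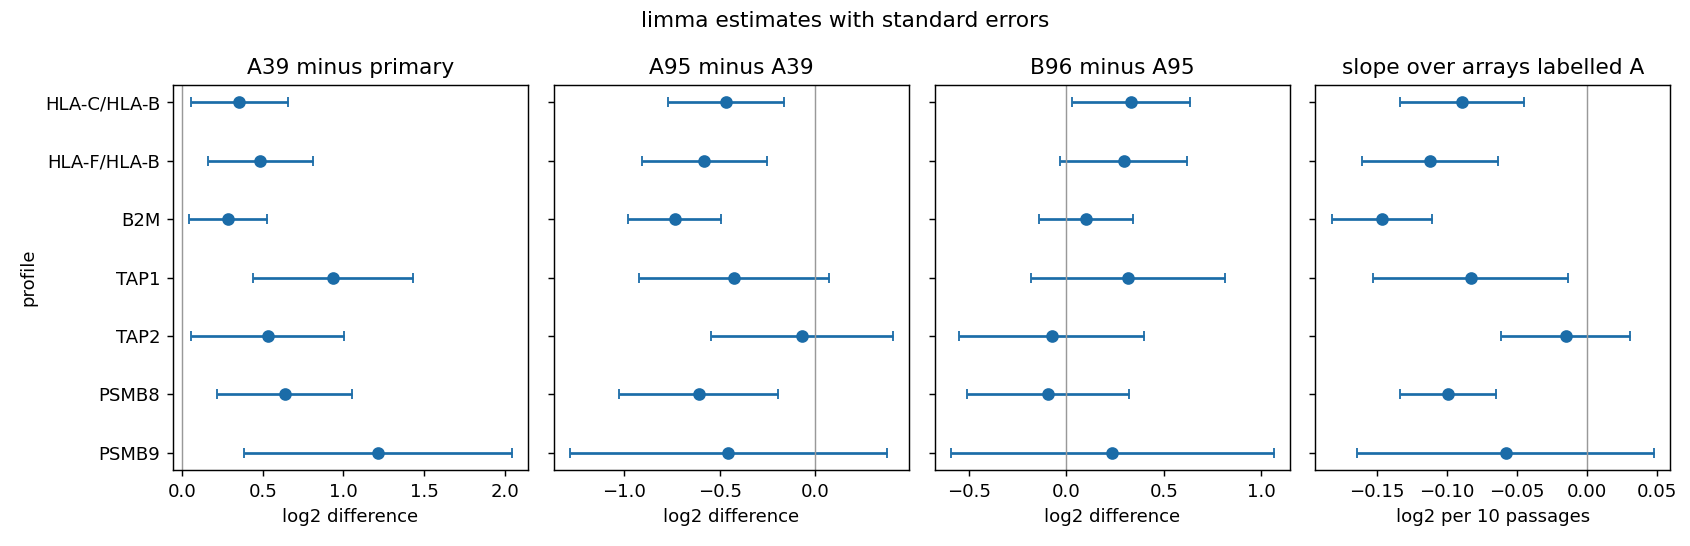
Log2 differences for 3 contrasts and the slope per 10 passages (horizontal axes) for the 7 profiles (vertical axis), each point a limma estimate with its standard error as a bar. The 7 estimates lie above 0 for A39 minus primary and below 0 for A95 minus A39 and for the slope, and 0 of 19 member rows passed in any panel.

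Members followed each other to different degrees. Over the 14 arrays Pearson correlations between profiles ran from 0.17 to 0.98 in 21 pairs. They are descriptions without a test, since partner arrays are not independent and all pairs share the same arrays. The highest values were 0.98 for the 2 heavy chain profiles, which share HLA-B in their annotation, and 0.93 (Spearman 0.90) for TAP1 with PSMB9, the neighbours whose windows are printed above. HLA-C/HLA-B correlated with TAP1 at 0.88, with PSMB9 at 0.76 and with its protein partner B2M at 0.66. Without A95 replicate 2 and B96 replicate 1 the correlation of HLA-C/HLA-B with B2M was 0.90, and that of B2M with TAP1 was 0.82 in place of 0.42 and with PSMB9 0.75 in place of 0.23.

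PSMB8 correlated with PSMB9, its counterpart in the immunoproteasome, at 0.45. Without primary replicate 1 this was 0.02, and PSMB8 with TAP1 and TAP2 had -0.09 and 0.02, while TAP1 with PSMB9 kept 0.88 and the 2 heavy chain profiles 0.98. Without A95 replicate 2 and B96 replicate 1, and with primary replicate 1 included, PSMB8 had 0.84 with PSMB9 and 0.88 with TAP2. The correlation of PSMB8 with the other transporter and immunoproteasome genes thus depended on which of these 3 arrays were included. It was not computed without all 3.

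**Figure D4:**
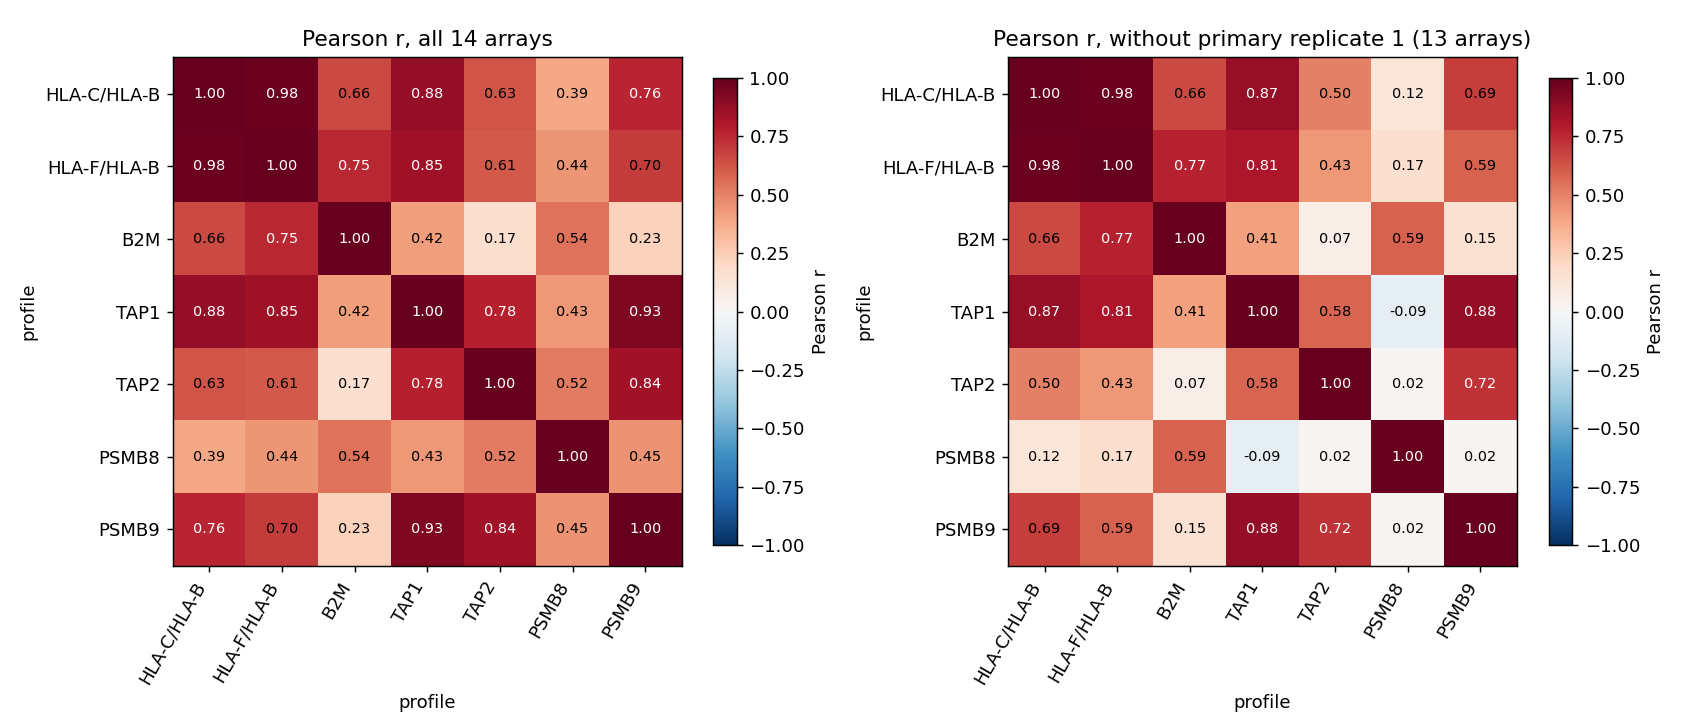
Pearson correlations between the 7 profiles (both axes), over all 14 arrays on the left and without primary replicate 1 on the right, with the value printed in each cell and colour running from -1 to 1. The pair of TAP1 and PSMB9 stays at 0.88 on the right, while PSMB8 with PSMB9 goes from 0.45 to 0.02.

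The pathway around the members was read from lists of genes. The third inducible catalytic subunit, PSMB10, did not track PSMB8 or PSMB9 on primary replicate 1, where it read 10.1. It was higher only on A95 replicate 2 and B96 replicate 1, at 10.7 and 10.8. Its other values lay between 8.56 and 9.79. PSME1, a subunit of the PA28 proteasome activator, read 9.57 on primary replicate 1 and 10.1 to 10.8 elsewhere, and was the gene most like PSMB8 (r = 0.885). The 14 constitutive proteasome genes had a mean deviation of -0.42 on A95 replicate 2, -0.28 on B96 replicate 1 and -0.21 on B96 replicate 2, and between -0.03 and 0.17 on the others. PSMB1, one of them, read 9.88 and 9.76 on the first 2 of these arrays and at least 10.9 elsewhere. Of the 13 genes of peptide loading and trimming, ERAP1, the aminopeptidase that trims peptides in the endoplasmic reticulum, read 8.67 on primary replicate 1 and 9.50 to 10.1 elsewhere, and TAPBP, which encodes tapasin, was highest at 11.0 on A95 replicate 2 and B96 replicate 1. Of the MHC class I-like genes, MR1, which presents vitamin B metabolites, read 6.77 to 7.19 on A58 replicate 2, both arrays labelled A67 and A95 replicate 1, and 7.76 to 8.72 elsewhere.

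Among regulators, IRF1, a transcription factor that binds interferon elements, read 7.52 on primary replicate 1, 9.10 to 9.41 on primary replicate 2, the arrays labelled A39 and A50 and A58 replicate 1, and 8.31 to 8.88 on the others. IRF9, the DNA-binding part of the complex that type I interferon activates, read 8.63 on primary replicate 1, between 10.2 and 10.6 on primary replicate 2, both arrays labelled A39 and A50 replicate 1, and 8.89 to 9.86 on the rest. MHC class II genes had mean deviations of -0.16 to 0.13, and genes of the MHC region without a role in presentation of -0.10 to 0.14. Interferon ligands had a mean deviation of -0.21 to 0.20 with a median row mean of 5.62, and whether they were expressed cannot be read from this table.

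In these lists limma called 0 genes in A39 against primary, A95 against A39, B96 against A95 and the trend. For A39 against primary the median was 0.65 for 41 interferon response genes (35 positive), 0.17 for 14 genes of interferon receptors and signalling, -0.09 for the constitutive proteasome, -0.06 for peptide loading and trimming, 0.11 for MHC class I-like genes and 0.07 for transcription factors of MHC class I, against 0.03 over all rows. Without primary replicate 1 the interferon median was -0.11 (29 of 41 negative) and without primary replicate 2 it was 1.34, and the lists of receptors and signalling and of transcription factors had -0.04 and -0.10 without primary replicate 1. For A95 against A39 the medians of these lists were -0.54 (33 negative), -0.29, -0.12, -0.04, 0.14 and 0.05, against 0.07 over all rows, and 11 of 41 interferon response genes had an unadjusted p under 0.05 and were lower, where 9.21% of all rows passed that level in either direction. For the trend 16 of the 41 did, all falling, where 8.83% of all rows fell at that level and 9.89% rose. Of the 14 receptor and signalling genes, 6 fell in the trend and 2 were lower in A95. Of the MHC class I-like genes 2 rose in the trend and 2 were higher in A95. Transcription factors had 2 rising and 2 falling in the trend and 1 higher in A95. The constitutive proteasome and peptide loading lists had 0 in both. At that level A39 against primary gave 0 genes in these 6 lists, where 1.2% of all rows passed. B96 against A95 gave 1, an interferon response gene that was lower in B96, where 2.28% of all rows passed. The proteasome genes outside the members, PSMB10 with PSME1, PSME2, PSME3 and POMP, had medians of -0.05, -0.05 and -0.08 in the 3 contrasts. A list of heavy chain genes had 0 members on rows with 1 symbol.

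The mean deviation of the 5 single-symbol members followed that of the interferon response genes. It was lowest on primary replicate 1, at -1.13, where the interferon genes stood at -0.78, and highest on primary replicate 2, at 0.51, where they stood at 0.81. Over the 14 arrays the 2 means correlated at 0.89 (Spearman 0.98), at 0.94 without primary replicate 1 and at 0.86 without the 2 arrays farthest out in the interferon mean, primary replicate 2 and A39 replicate 1. By member the correlation with the interferon mean was 0.84 for PSMB9 and HLA-C/HLA-B, 0.83 for TAP1 and HLA-F/HLA-B, 0.65 for B2M, 0.61 for TAP2 and 0.57 for PSMB8. The interferon response genes with the largest spread were IFITM1 (5.70 to 10.6), IFI44L (5.09 to 9.02), IFIT1 (7.17 to 10.9) and IFI44 (6.17 to 9.26). PSMB9, the member with the widest range, ran from 7.14 to 10.24. IFIT1 stood at 9.06 on A95 replicate 2, below its 10.8 on A39 replicate 1. On the same arrays IFITM1 stood at 8.06 and 10.4, IFI44L at 7.55 and 8.9, and IFI44 at 9.08 and 9.25. PSMB9 stood at 10.24 and 9.84 on these arrays.

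**Figure D5:**
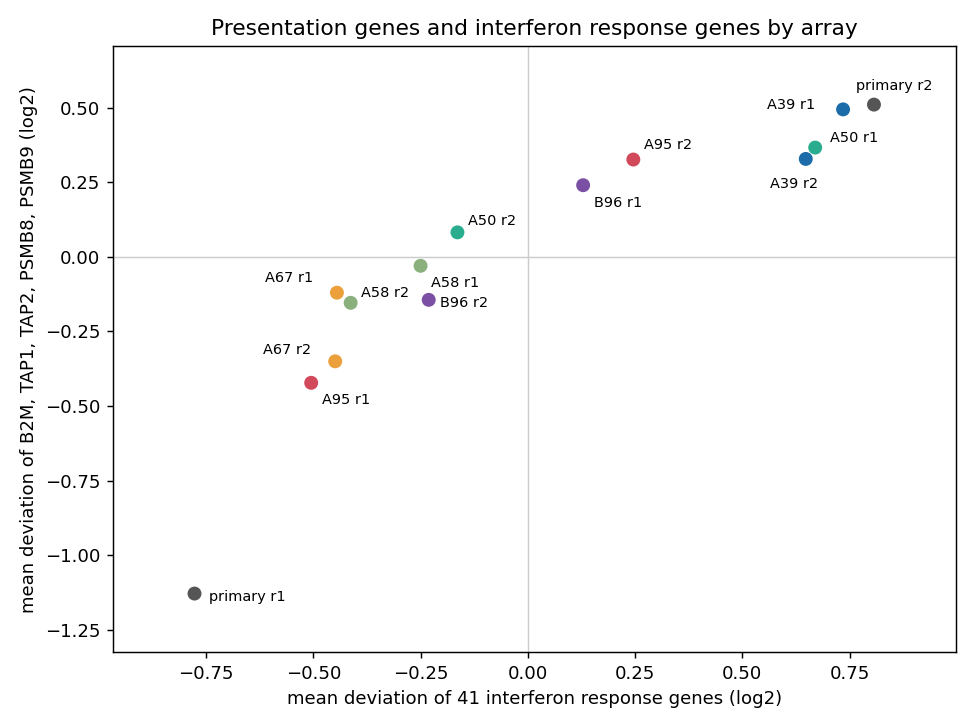
Mean deviation of the 5 single-symbol members (vertical axis, log2) against that of 41 interferon response genes (horizontal axis, log2), 1 point per array, coloured by labelled group, with each gene's mean over the arrays set to 0. Primary replicate 1 lies at the lower left, and primary replicate 2, both arrays labelled A39 and A50 replicate 1 at the upper right.

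TERT moved with some members. Its correlation over the 14 arrays was 0.82 with TAP1, 0.81 with PSMB9, 0.71 with TAP2 and 0.61 with PSMB8. Without primary replicate 1 it was 0.71 with TAP1, 0.78 with PSMB9, 0.18 with TAP2, -0.13 with PSMB8 and -0.01 with B2M. The part of TERT in these levels was not tested.

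The genes most like the mean of the 5 single-symbol members over the 14 arrays, with the members themselves left out, were PARP9 (r = 0.979), DTX3L (0.968), PLPP3 (0.953), DDX60 (0.953), PARP12 (0.946), SAMHD1 (0.945), KIF13B (0.927), PTX3 (0.926), IFI35 (0.924) and IRF9 (0.917). PARP9 read 7.48 on primary replicate 1, between 9.89 and 10.0 on primary replicate 2, the arrays labelled A39 and A50 replicate 1 (9.94), and 8.57 to 9.63 on the others. For single profiles the most alike were IFITM3 for HLA-C/HLA-B (0.953) and HLA-F/HLA-B (0.968), RIT1 for B2M (0.980), SECTM1 for TAP1 (0.953), MSC for TAP2 (0.928) and MRGPRF for PSMB9 (0.939). RIT1 read 9.52 to 9.99 on A58 replicate 2 and the arrays labelled A67, A95 and B96, with its lowest value on A95 replicate 2, and 9.78 on primary replicate 1 against 10.3 on the other 6. These genes were picked for their likeness among all rows with 1 symbol, so the correlations are a description.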

How the data were processed

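RNA of 14 WI-38 samples was measured on Affymetrix gene-level arrays, 1 array per sample, per the labels' protocols. The values are on a log2 scale, as the authors deposited them in a single table of 28869 rows, with the base judged from their size. How they were background-corrected and normalized is not given in the sources. Array medians were 7.26 to 7.48. The largest values were 13.97 on A95 replicate 2 and 13.98 on B96 replicate 1, and 14.15 to 14.27 on the other arrays. Those 2 arrays held 4 and 3 values of 0, and the others 12 to 20. The part of this in the results was not tested. The table holds no detection calls. Apart from that, the number of arrays, 2 per group, limits the precision.

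Symbols came from the platform annotation, updated by gene ID through RefSeq (19279 of 19310 rows with 1 symbol matched). The row with the highest mean stood for a gene in lists and for each of the 7 member profiles. Limma 3.58.1 (R 4.3.3) fitted group means to the 14 arrays without a filter, and the slope to the 10 arrays labelled A, two-sided, with Benjamini-Hochberg adjustment over all 28869 rows at 0.05. The fits were tested on simulated data. From each of 15 lists at most 4 genes, those with the largest spread over the arrays, could be named, along with the 10 rows most correlated with the members and 3 for each profile. Cell type markers named beside them, and CDH5, VWF, EPCAM, CDH1, PTPRC and CD14, were picked as the defining ones after their values were seen, and KRT14 to show the other side of the epithelial list. Members and lists were chosen with earlier results of these data known. Promoter windows come from RefSeq and were searched for textbook motifs after the values were seen. The longer form of the interferon element, with GAAA in its first part, was added after a first search of these windows with the shorter form. Alternatives were each array left out, a replicate block, quantile normalization, median centring, removal of rows under the 30th percentile by mean, array weights, a robust prior with an intensity trend, fits on 2 groups, and other trend models.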

Additional observations from a re-analysis of the deposited data

How the results depend on the processing

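Duplicate groups and unequal arrays under 1 label limit what these tests can call, and signal over background is unknown for every row. Each contrast, the F test and the trend gave 0 called member rows as first fitted. The count stayed at 0 of 19 in all 7 contrasts and the F test under every alternative run. For the trend it was 7 with array weights, where 7.52% of all rows passed. These 7 rows stand for B2M, TAP1 and HLA-C/HLA-B. It was 1, that of B2M, with median centring (1.49% of all rows), passage as a random block (2.53%) and ranks of passage (1.69%). The cause was not tested. The median slope was -0.26 on passages 39 to 67, which uses fewer arrays.

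The 21 correlations of deviations between groups, matched by replicate number, ran from -0.53 to 0.20. Of these, 4 were over 0.1 and 9 were under -0.1. Arrays with the same replicate number thus did not deviate alike as a rule, and opposite deviations were more frequent. The mutual closest partners described above also joined arrays with different replicate numbers. The reason was not tested. With the replicate block limma called 0 member rows in the 7 contrasts, the F test and the trend, where the median slope was -0.0892.

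With each array left out in turn, where the lone array of a group is assumed to vary like the other groups, the median of the 7 profiles ran from -0.14 to 1.26 for A39 against primary and the median slope from -0.159 to -0.0704. For A39 against primary the ranges were -0.025 to 0.595 for B2M, -0.14 to 0.85 for HLA-C/HLA-B, -0.075 to 1.05 for HLA-F/HLA-B, -0.20 to 1.47 for PSMB8, -0.15 to 2.58 for PSMB9 and -0.20 to 1.26 for TAP2, all negative without primary replicate 1. For A95 against A39 they were -1.43 to 0.52 for PSMB9, -1.04 to 0.19 for TAP1 and -0.58 to 0.44 for TAP2. For B96 against A95 they were -0.09 to 0.29 for B2M, -0.23 to 0.04 for PSMB8, -0.74 to 1.21 for PSMB9, -0.30 to 0.93 for TAP1 and -0.59 to 0.44 for TAP2. Slopes ran from -0.273 to 0.0289 for PSMB9 and from -0.105 to 0.0536 for TAP2. Outside the left-out arrays no profile changed direction in the 3 contrasts or the trend.

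Leaving out arrays for the gene lists was an alternative chosen after seeing the data. For A39 against primary the medians ran from -0.11 to 1.34 for interferon response genes, -0.035 to 0.263 for interferon receptors and signalling, -0.075 to 0.010 for peptide loading, -0.0050 to 0.15 for MHC class I-like genes, -0.10 to 0.19 for transcription factors and -0.020 to 0.28 for fibroblast markers. For A95 against A39 they ran from -0.385 to 0.113 for the constitutive proteasome, -0.045 to 0.055 for peptide loading, -0.070 to 0.075 for transcription factors and -0.21 to 0.12 for PSMB10, PA28 and POMP. For B96 against A95 they ran from -0.29 to 0.39 for interferon response genes, -0.315 to 0.213 for the constitutive proteasome, -0.065 to 0.0175 for MHC class I-like genes and -0.24 to 0.070 for PSMB10, PA28 and POMP.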
